A study of Homo sapiens with 2 samples.

Results

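The genes described here are 36 members of fibroblast growth factor (FGF) signalling: 22 FGF ligand genes, 4 receptor genes, 8 genes whose products restrain the ERK kinase cascade and the 2 transcription factor genes ETV4 and ETV5. A peak was taken as belonging to a member when its summit lay inside the gene or within 50 kb of either end on hg38. This gave 991 of 295753 primed peaks and 970 of 299673 hTBLC peaks, around 36 of 19974 protein-coding genes. Open chromatin had been profiled by ATAC-seq, which marks DNA accessible to a transposase, in WIBR3, an established human embryonic stem cell line. One library was labelled primed, the usual cultured state of such cells, and 1 was labelled hTBLC, which the study's title links to totipotency obtained through spliceosomal repression. Both libraries were labelled with the cell line WIBR3 and the cell type hESC, and the sources used here give no agent, dose or time for the hTBLC state. The study asked which accessible sites gained or lost signal between these states.

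Each group held 1 library, so no replicate spread, test or p-value across the states was available, and a difference here is between 2 libraries. Values are summit pileups, the number of reads or fragments stacked at the strongest point of a called region. A ratio is the hTBLC pileup over the primed pileup, divided by a relative depth of 1.09, with a 95% interval that covers counting error alone. A ratio is called past the fold when it is at least 1.5 or at most 1 over 1.5 (0.67 when rounded) and its interval excludes 1. Median summit pileups were 18 (primed) and 17 (hTBLC), and the lowest called were 6 and 7. Among markers of the labelled cell type, 8 of 9 pluripotency genes were found by name, of which 6 had a region at the gene start in both libraries. All 6 ratios lay below 1, as did 6811 of 14202 over all genes. They ran from PRDM14 with 127 and 65, a ratio of 0.47, to SALL4 with 125 and 118, a ratio of 0.86. NANOG with 35 and 21 and L1TD1 with 151 and 97 were also past the fold, and DNMT3B (0.81) was not. SOX2 fell just short of the fold, at 0.669 with an interval of 0.50 to 0.89 that excludes 1. POU5F1 had a region in the primed library alone, and LIN28B had one in neither. Over all genes 10.2% of ratios were past the fold and lower in hTBLC, and 8.51% higher. A start region was in both libraries at 75.5% of all genes, in primed alone at 3.34%, in hTBLC alone at 2.7% and in neither at 18.5%. The fibroblast genes COL3A1 and POSTN each had a weak region, of 14, that was hTBLC-only, and the other 3 fibroblast markers had one in both libraries with ratios short of the fold where they gave one. Of 5 trophectoderm markers 4 had a region in both and GATA2 had none, and KRT7, with 50 and 14, was lower in hTBLC. All 5 endoderm markers had a region in both libraries, and PDGFRA, with 59 and 98, was higher in hTBLC. A region in both libraries need not be the same site. At GATA6 the primed region of 19, 524 bp inside, and the hTBLC region of 37, 63 bp before the start, each touched none of the other list. The strongest regions of TWIST2, CDX2 and FOXA2 did not overlap between the libraries either. Whether a change in the mixture of cells plays a part in the results below was not tested, and in bulk samples fewer accessible cells and less signal per cell cannot be told apart.

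FGF ligands bind receptor tyrosine kinases on the cell surface, with heparan sulfate or a Klotho protein as a partner, and the receptors pass the signal through RAS, RAF and MEK to ERK. Active ERK induces ETV4 and ETV5 and also its own brakes: Sprouty and SPRED proteins act on the cascade upstream of ERK, and DUSP phosphatases remove phosphate from ERK family kinases. In primed human embryonic stem cells FGF2 is a standard component of the culture medium, and FGF4 is a ligand made by the inner cell mass of the blastocyst.

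Promoter sequence is shown for 5 members whose start ratios were past the fold, together with DUSP6 as a brake gene with strong regions in both libraries. The bases run 5′ to 3′ in the direction of the gene and end 1 base before the start given in the gene table, on build GRCh38.p14, from RefSeq. Up to 250 bases were printed, and fewer where the RefSeq window begins closer to that start. Capitals mark matches, on either strand, to GGGCGG (the GC box of SP and KLF factors), CCGGAAG (an ETS site), TGANTCA (an AP-1 site), CCAAT and TATAAA.
FGF2, chr4:122826581-122826681, plus strand: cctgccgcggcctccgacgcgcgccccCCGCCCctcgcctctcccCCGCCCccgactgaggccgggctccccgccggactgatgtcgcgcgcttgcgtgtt
FGFR4, chr5:177086665-177086914, plus strand: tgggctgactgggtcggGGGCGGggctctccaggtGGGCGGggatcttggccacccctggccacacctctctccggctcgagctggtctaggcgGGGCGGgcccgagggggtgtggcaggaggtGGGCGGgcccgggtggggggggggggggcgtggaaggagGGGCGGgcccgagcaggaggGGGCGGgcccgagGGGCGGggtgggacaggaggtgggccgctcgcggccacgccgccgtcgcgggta
FGFR2, chr10:121598459-121598694, minus strand: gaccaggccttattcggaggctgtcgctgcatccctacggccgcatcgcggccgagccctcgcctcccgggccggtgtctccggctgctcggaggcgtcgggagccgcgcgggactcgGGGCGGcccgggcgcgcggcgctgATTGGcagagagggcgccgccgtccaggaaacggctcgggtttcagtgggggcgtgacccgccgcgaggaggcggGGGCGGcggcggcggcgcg
FGF22, chr19:639629-639878, plus strand: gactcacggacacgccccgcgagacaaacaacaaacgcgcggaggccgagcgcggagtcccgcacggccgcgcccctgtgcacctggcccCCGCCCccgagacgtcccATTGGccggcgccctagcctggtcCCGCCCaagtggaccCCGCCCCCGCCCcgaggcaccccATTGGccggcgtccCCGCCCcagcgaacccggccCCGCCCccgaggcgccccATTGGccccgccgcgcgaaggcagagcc
SPRED2, chr2:65432600-65432849, minus strand: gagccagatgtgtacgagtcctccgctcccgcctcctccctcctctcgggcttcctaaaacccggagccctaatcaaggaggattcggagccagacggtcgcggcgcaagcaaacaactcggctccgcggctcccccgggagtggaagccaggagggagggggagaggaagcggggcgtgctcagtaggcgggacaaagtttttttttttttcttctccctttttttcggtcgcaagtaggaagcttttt
DUSP6, chr12:89352502-89352751, minus strand: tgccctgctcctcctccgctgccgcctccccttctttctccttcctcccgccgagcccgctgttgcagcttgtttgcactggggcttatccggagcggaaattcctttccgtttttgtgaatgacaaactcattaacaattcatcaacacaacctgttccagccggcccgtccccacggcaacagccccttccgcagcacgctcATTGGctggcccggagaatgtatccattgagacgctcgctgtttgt
FGFR4, whose start region differed most between the libraries, carries 7 GC boxes in these bases, and FGF22 carries 6 with 3 CCAAT boxes between and beside them. The shown bases of FGF2 and FGFR2 hold 2 GC boxes each, and FGFR2 has 1 CCAAT box. SPRED2 matches none of the 5 motifs, and DUSP6 matches CCAAT alone. RefSeq windows were found for 24 of the 36 members. In their 250 bases before the window's own start, GGGCGG was found in 58.3% of the 24, against 55.8% of 15812 genes, and CCAAT in 29.2% against 34.4%. The most GC boxes there, 8, were held by FGFR3, whose start ratio of 0.82 was short of the fold. FGF18 held 3, with a start ratio of 1.07 that was also short of it. CCGGAAG, held by 11.7% of all windows, and TGANTCA, held by 5.003%, matched in 0 of the 24 members. These letters say nothing of which factor binds there.

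Members without a start region in both libraries were mostly poor in CpG. The 19 members with a start region in both libraries had a median of 23 CpG dinucleotides in the 250 bases, with a range of 8 to 42. The 5 members without one in both, FGF1, FGF3, FGF6, FGF7 and FGF21, had 2, 19, 4, 2 and 0. The median over all 15812 genes was 17.

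At the gene start, within 1 kb, 30 of the 36 members had a region in both libraries, against 75.5% of all genes. FGF3 and FGF7 had one in the primed library alone (3.34% of all genes), FGF1 had one in hTBLC alone (2.7%), and FGF6, FGF17 and FGF21 had one in neither (18.5%). For 12 members the strand was not known, and either end of the gene was used: FGF4, FGF8, FGF9, FGF16, FGF17, FGF19, FGF20, FGFR1, DUSP4, DUSP5, ETV4 and ETV5. The strongest regions of both libraries overlapped at 28 members, which gave a ratio. Of these ratios 3 were past the fold and higher in hTBLC, where 8.51% of 14202 genes were, and 4 were lower in hTBLC, where 10.2% of genes were. As a whole the members stood near the background, with a median log2 ratio of 0.071 against 0.022 over all genes. The 3 higher members were SPRED2, DUSP4 and DUSP5, all brakes of ERK, and the 4 lower ones were the ligand genes FGF2 and FGF22 and the receptor genes FGFR2 and FGFR4. Without depth scaling 4 were higher (14.2% of genes) and 3 lower (7.52%), since FGF10 joined the higher and FGF22 left the lower ones. With strongest summits paired by position, at most 150 bp apart, 30 members gave a ratio, of which 3 were higher (9.23% of 14515 genes) and 4 lower (10.7%), but the members changed. FGF2, SPRED2 and DUSP5 were then higher and FGF11, FGF22, FGFR2 and FGFR4 lower, so FGF2 switched sides and DUSP4 was no longer past the fold.

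**Figure D1:**
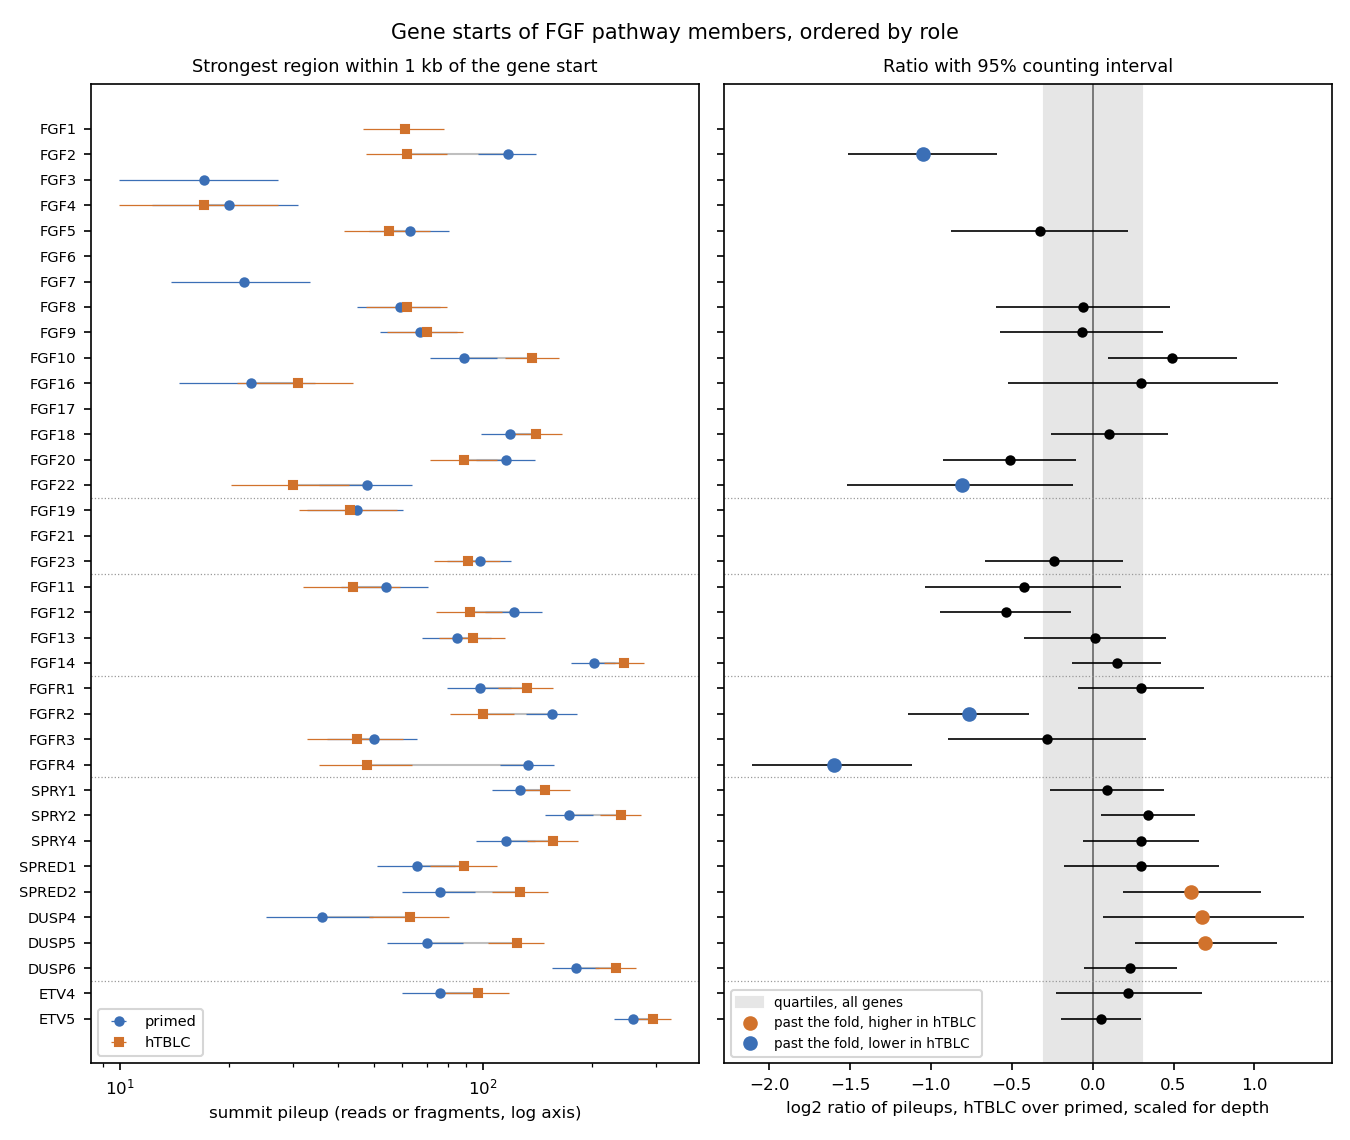
Left, the summit pileup (log axis) of the strongest region within 1 kb of each member's start, for the primed (circles) and hTBLC (squares) library with 95% Poisson intervals. Right, the log2 ratio of the pileups scaled for depth, with its 95% counting interval; the grey band spans the quartiles of all genes, −0.30 to 0.30. All 10 feedback and ETV genes at the bottom lie to the right of 0, and FGFR4, with 133 and 48, lies farthest to the left.

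Secreted ligands that act on neighbouring cells made up 15 of the members, and 0 of their 9 ratios were past the fold on the hTBLC side, where 8.51% of all genes were; with paired summits 1 of 10 was, at FGF2. FGF2 encodes the ligand added to primed cultures. Its start region had a primed pileup of 117 (96.8 to 140) and a hTBLC pileup of 62 (47.5 to 79.5), a ratio of 0.48 (0.35 to 0.66). These summits lay far apart, at 1841 bp inside the gene in primed and 758 bp in hTBLC, so the summits were also read in pairs at most 150 bp apart. Next to the FGF2 start, 19 and 36 bp inside it, the pileups were 53 and 37, a ratio of 0.64 (0.41 to 0.99). The next pair, at 794 and 758 bp, had 35 and 62 and the opposite direction, with a ratio of 1.62 (1.05 to 2.52). At 1841 and 1837 bp the pileups were 117 and 59, a ratio of 0.46 (0.33 to 0.64). The FGF2 start was therefore lower in hTBLC at its outer and inner summits and higher at 1 summit between them, and the single ratio depends on which summits are set against each other.

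FGF22, a ligand known from synapse formation, had its strongest summits 79 and 76 bp before the start, with pileups of 48 (35.4 to 63.6) and 30 (20.2 to 42.8), and a weaker hTBLC summit of 12 farther out. Its ratio was 0.57 (0.35 to 0.92), and without depth scaling its interval on the log2 scale, −1.39 to 0.01, included 0. FGF20 had 116 and 89, a ratio of 0.70 (0.53 to 0.93) that stayed short of the fold, from summits 698 and 787 bp inside its end of higher coordinate. The FGF20 pair nearer that end, 149 and 61 bp inside, had 73 and 40, a ratio of 0.50 (0.33 to 0.75).

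FGF10, which drives budding of lung and limb, stood on the other side among ligands. Its summits, 235 and 221 bp before the start, had pileups of 89 (71.5 to 110) and 137 (115 to 162). The ratio of 1.41 (1.07 to 1.86) was short of the fold, with an interval above 1.

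FGF8, a ligand of gastrulation and of brain and limb patterning, had 59 and 62, a ratio of 0.96 (0.66 to 1.39). FGF9 had 67 and 70, FGF18 had 119 and 140, FGF5 had 63 and 55 and FGF16 had 23 and 31. None of these 5 ratios of strongest summits separated from 1 at this depth, but some single summit pairs did. FGF5 marks the primed epiblast; its pair 398 and 411 bp inside the gene had 63 and 42, a ratio of 0.61 (0.40 to 0.91), and the pair 1744 and 1804 bp inside had 41 and 25, a ratio of 0.56 (0.32 to 0.94). The pair nearest the FGF5 start, 29 bp before and 102 bp inside, had 51 and 55. FGF18 had 66 and 109 at 282 and 227 bp before its start, a ratio of 1.51 (1.101 to 2.08).

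FGF4, the ligand of the inner cell mass, had weak regions at both ends. The end of lower coordinate on chromosome 11 had 17 in each library, and the upper end had 20 and 12, a ratio of 0.55 (0.24 to 1.18). The upper summits lay far apart, 183 bp outside that end in primed and 1043 bp inside it in hTBLC. Paired by position, the summits 1020 and 1043 bp inside had 15 and 12, a ratio of 0.73 (0.31 to 1.67). The strongest primed and hTBLC regions lay at different ends, so the gene as a whole gave no ratio.

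At the 3 genes with a start region in 1 library alone, the strongest such region touched one of the other library just beyond the 1 kb limit. FGF1, the ligand that can bind all FGF receptors, had its strongest hTBLC region 1158 bp before the start with a pileup of 61, and a primed summit of 81 lay at 1166 bp, a ratio of 0.69 (0.49 to 0.97). FGF3 had 17 in primed and 27 in hTBLC at 1331 and 1338 bp inside the gene. FGF7, a growth factor of epithelia also called KGF, had 22 and 12 at 1120 and 1106 bp before the start. The strongest start regions of these 3 genes were thus not confined to 1 list. If such contact were taken as presence in both, 0 members would be counted in 1 library alone. Members counted in both could still hold a start region that touched none of the other list. Examples were the strongest primed region of FGF19, of 45, and a hTBLC region of 56 at ETV5.

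The endocrine ligands travel in blood and need Klotho co-receptors. FGF23, which lowers blood phosphate, had 98 and 91, a ratio of 0.85 (0.63 to 1.14). FGF19, a bile acid regulated hormone of the gut, had 45 and 43, whose strongest regions did not overlap. The summits 745 and 746 bp above its upper end had 44 and 43, a ratio of 0.89 (0.57 to 1.39). FGF21 had a start region in neither library.

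The FGF11 subfamily stays inside the cell and binds voltage-gated sodium channels. FGF14 had the strongest start region of the ligand genes, 202 and 245, with a ratio of 1.11 (0.92 to 1.34). FGF13 had 85 and 94, a ratio of 1.01 (0.75 to 1.37). FGF12 had 122 and 92, a ratio of 0.69 (0.52 to 0.91) short of the fold. FGF11 had 54 and 44 at its strongest summits 1127 and 1138 bp before the start, and 45 and 25 at the summits 45 and 43 bp before it, where the ratio was 0.51 (0.30 to 0.85). Inner transcript starts of these long genes were also read. In FGF12 the start 317944 bp inside had 84 and 107, a ratio of 1.16 (0.87 to 1.57), and in FGF14 the start 485498 bp inside had 79 and 108, a ratio of 1.25 (0.93 to 1.69), neither separable from 1 at this depth. A weak start 84739 bp inside FGF14 had 6 and 19, a ratio of 2.89 (1.11 to 8.85), and one 465670 bp inside FGF13 had a region of 19 in the hTBLC library and none in primed.

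Among the receptor genes, 2 of 4 starts were past the fold and lower in hTBLC, against 10.2% of all genes. FGFR4, a receptor with a role in liver bile acid control, showed the largest difference of the 28 ratios. Its pileup was 133 (111 to 158) in primed, in a region on chromosome 5 at 177086189 to 177087427, and 48 (35.4 to 63.6) in hTBLC at 177086328 to 177087549. The ratio was 0.33 (0.23 to 0.46), at percentile 1.12 of all genes with a ratio. Its log2 ratio stayed between −1.60 and −1.47 under 9 alternative settings. Most of these set the same pileups of 133 and 48 against each other, and the value of −1.47 reflects only the 0.13 of depth scaling. A second summit pair, 178 and 250 bp inside the gene, had 56 and 39, a ratio of 0.64 (0.41 to 0.97).

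FGFR2, whose splice forms separate epithelial from mesenchymal ligand use, had its summit 93 bp before the start in both libraries. The pileups were 155 (132 to 181) and 100 (81.4 to 122), a ratio of 0.59 (0.45 to 0.76). FGFR1, known as the main FGF receptor of pluripotent stem cells, lay on the other side, with 98 (79.6 to 119) and 132 (110 to 157) and a ratio of 1.23 (0.94 to 1.61) that was not separable from 1. FGFR3, a brake on growth of cartilage, had 50 and 45, a ratio of 0.82 (0.54 to 1.25), from summits at 443 and 43 bp before the start. Paired by position, its summits 443 and 387 bp before the start had 50 and 21, a ratio of 0.38 (0.22 to 0.65), and those 56 and 43 bp before it had 42 and 45. Over all paired summits within 2 kb of a receptor start, or of either end of FGFR1, 1 of 9 ratios was above 1. Past the fold and lower in hTBLC were 4. Over all genes these were 48.5% and 11.7% of 29925 pairs. The 9 include pairs with 36 and 31 and with 19 and 16 at the lower end of FGFR1. That end entered because the strand was not known, and the strongest FGFR1 regions lay at its upper end.

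Among the feedback genes all 8 ratios lay above 1, as did both ETV genes, against 52.0% of all genes. The median log2 ratio of the 10 was 0.30, with a range of 0.051 to 0.69, and the upper quartile of all genes was 0.30 as well. In 4 of the 10 the interval lay above 1, as in 2417 of 14202 over all genes. Past the fold and higher in hTBLC were 3 of the 10, against 8.51% of all genes. The count above 1 was 10 of 10, or 9 of 9 where 9 gave a ratio, in each of the 8 alternatives tried. These were not 8 separate checks. The −log10 q limits, the common −log10 p floor and windows of 500 and 2500 bp left the median at 0.30. Both changes of depth scaling add 0.13 to every log2 ratio, which cannot bring one below 0. With summits paired by position the median was 0.32. These ratios compare pileups and do not take out the local background. The fold over local background was lower in hTBLC at SPRED1, 6.29 and 6.08, and at ETV5, 16.0 and 13.5. It was higher in hTBLC at each of the other feedback and ETV genes.

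SPRED2, an inhibitor of RAS and RAF activation, had 76 (59.9 to 95.1) in primed against 127 (106 to 151) in hTBLC, with a ratio of 1.53 (1.14 to 2.06), with summits 117 and 67 bp before the start. DUSP5, a nuclear phosphatase specific for ERK, had 70 (54.6 to 88.4) and 124 (103 to 148), a ratio of 1.62 (1.20 to 2.20). DUSP4, a nuclear phosphatase of ERK and other MAP kinases, had 36 (25.2 to 49.8) and 63 (48.4 to 80.6), a ratio of 1.60 (1.04 to 2.48). Paired by position, DUSP4 had 36 and 55, a ratio of 1.40 (0.90 to 2.19), which was not past the fold. The local background of DUSP5 rose too, from 10.2 in primed to 18.2 in hTBLC. Its fold over local background was 6.34 and 6.51, nearly the same. For SPRED2 these folds were 5.56 and 6.59, and for DUSP4 2.76 and 3.85.

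SPRY2, a Sprouty inhibitor of receptor signalling, had 173 (148 to 201) and 240 (211 to 272), a ratio of 1.27 (1.04 to 1.55). DUSP6, the cytoplasmic ERK phosphatase often used as a readout of ERK activity, had 181 (156 to 209) and 233 (204 to 265), a ratio of 1.18 (0.96 to 1.44). SPRED1 had 66 and 89, and SPRY1 had 127 and 148, a ratio of 1.06 (0.83 to 1.36). SPRY4 had 116 and 156, a ratio of 1.23 (0.96 to 1.58) from summits at 1142 and 261 bp before the start.

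The single summits of these genes did not all point the same way. At SPRY4 the summits 182 and 261 bp before the start had 108 and 156, a ratio of 1.32 (1.03 to 1.70), and those 1142 and 1113 bp before it had 116 and 52, a ratio of 0.41 (0.29 to 0.57). DUSP6 had 75 and 130 at 1155 and 1154 bp before its start, a ratio of 1.58 (1.18 to 2.13), and 172 and 144 at 1673 and 1714 bp, a ratio of 0.76 (0.61 to 0.96). SPRY1 had 51 and 30 at 1786 and 1826 bp inside the gene, a ratio of 0.54 (0.33 to 0.86). Over all paired summits within 2 kb of the feedback and ETV genes, 23 of 29 ratios were above 1, with 5 past the fold and higher in hTBLC (8.5% over all genes) and 2 lower. The feedback genes alone had 3 higher and 2 lower of 23. The other 2 higher pairs lay at the lower ends of ETV4, with 18 and 46, and of ETV5, with 19 and 43. Those ends entered because the strand was not known, and the strongest regions of both genes lay at their upper ends.

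ETV5 had the highest start pileups of the 36 members, 260 (229 to 294) and 295 (262 to 331), a ratio of 1.04 (0.87 to 1.23). ETV4 had 76 and 97, a ratio of 1.17 (0.85 to 1.60). At its other end ETV5 had 19 and 43, a ratio of 2.07 (1.18 to 3.76); which end is the 5′ end was not determined here.

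**Figure D2:**
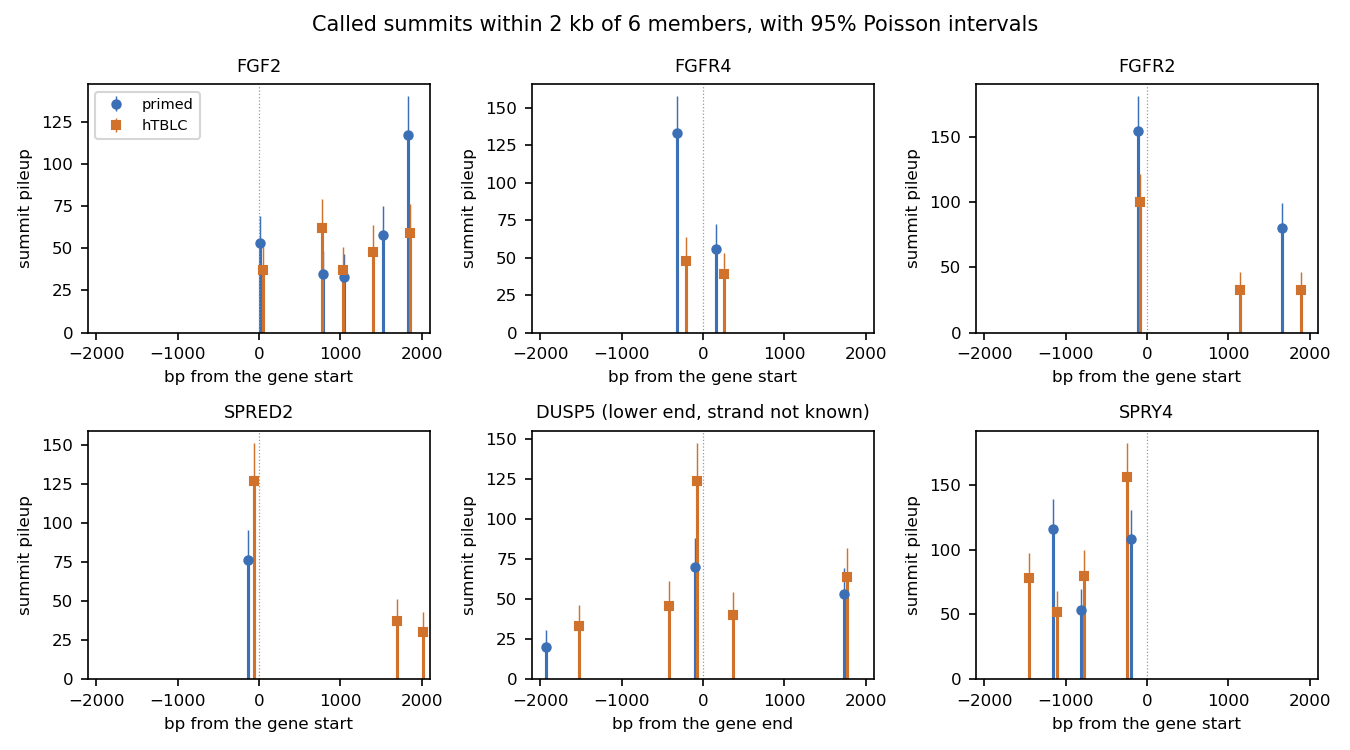
Every called summit within 2 kb of the start of 6 members, with its distance from the start in bp (for DUSP5, from the lower gene end) on the horizontal axis and its pileup on the vertical axis; whiskers are 95% Poisson intervals. The FGFR4 and FGFR2 summits nearest the start are taller in primed (circles) and those of SPRED2 and DUSP5 in hTBLC (squares), while FGF2 and SPRY4 hold summits of both directions.

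A wider list of 44 other FGF and ERK pathway genes, from co-receptors and adaptors to RAS, RAF, MEK, ERK and their targets, was read in the same way. A start region was present in both libraries at 42 of them. DUSP9, a further ERK phosphatase, had a region of 23 that was found in hTBLC alone, and the co-receptor gene KLB had one in neither. Of the 44, 5 are feedback genes like the 8 members, and their ratios lay below 1 where they gave one, with intervals that include 1 except at SPRY3. The genes SPRY3, SPRED3 with 98 and 87, DUSP7 with 158 and 146 and IL17RD with 71 and 65 had ratios of 0.56, 0.81, 0.84 and 0.84, and DUSP9 gave none. Of all 40 ratios, 0 were past the fold and higher in hTBLC, 3 were lower, and 18 lay above 1, with a median log2 ratio of −0.032. The 3 lower genes were FGFBP1, a carrier of secreted FGFs, with 29 and 11 and a ratio of 0.35 (0.16 to 0.71), the phosphatase gene PTPN11 with 54 and 37 and a ratio of 0.63 (0.40 to 0.97), and the Sprouty gene SPRY3 with 55 and 34 and a ratio of 0.56 (0.36 to 0.88). The adaptor gene GAB1 had 246 and 376, a ratio of 1.40 (1.19 to 1.65), and ETV1, a relative of ETV4 and ETV5, had 258 and 378, a ratio of 1.34 (1.14 to 1.57); both were short of the fold and are named after their values were seen.

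Around the genes, overlapping peaks merged into 776 primed and 776 hTBLC regions. Of these, 268 in each library touched no region of the other, 34.5% (31.3 to 38.0, Wilson) of each list, against 37.3% of all primed and 39.2% of all hTBLC regions. At gene starts of any gene, 10.7% of 103 primed and 13.0% of 108 hTBLC regions near the members were found in 1 library alone. Away from starts the shares were 38.2% of 673 and 38.0% of 668. A few regions lay near more than 1 member, 17 in primed and 15 in hTBLC, and were counted once in these totals. With equal counts, the hTBLC share of library-only regions near the members was 50% (45.8 to 54.2), against 48.9% near protein-coding genes in general. Of the members, 17 had more primed-only and 14 more hTBLC-only regions, and 5 had equal numbers; over all genes with such a region these were 53.7% and 34.4%.

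**Figure D3:**
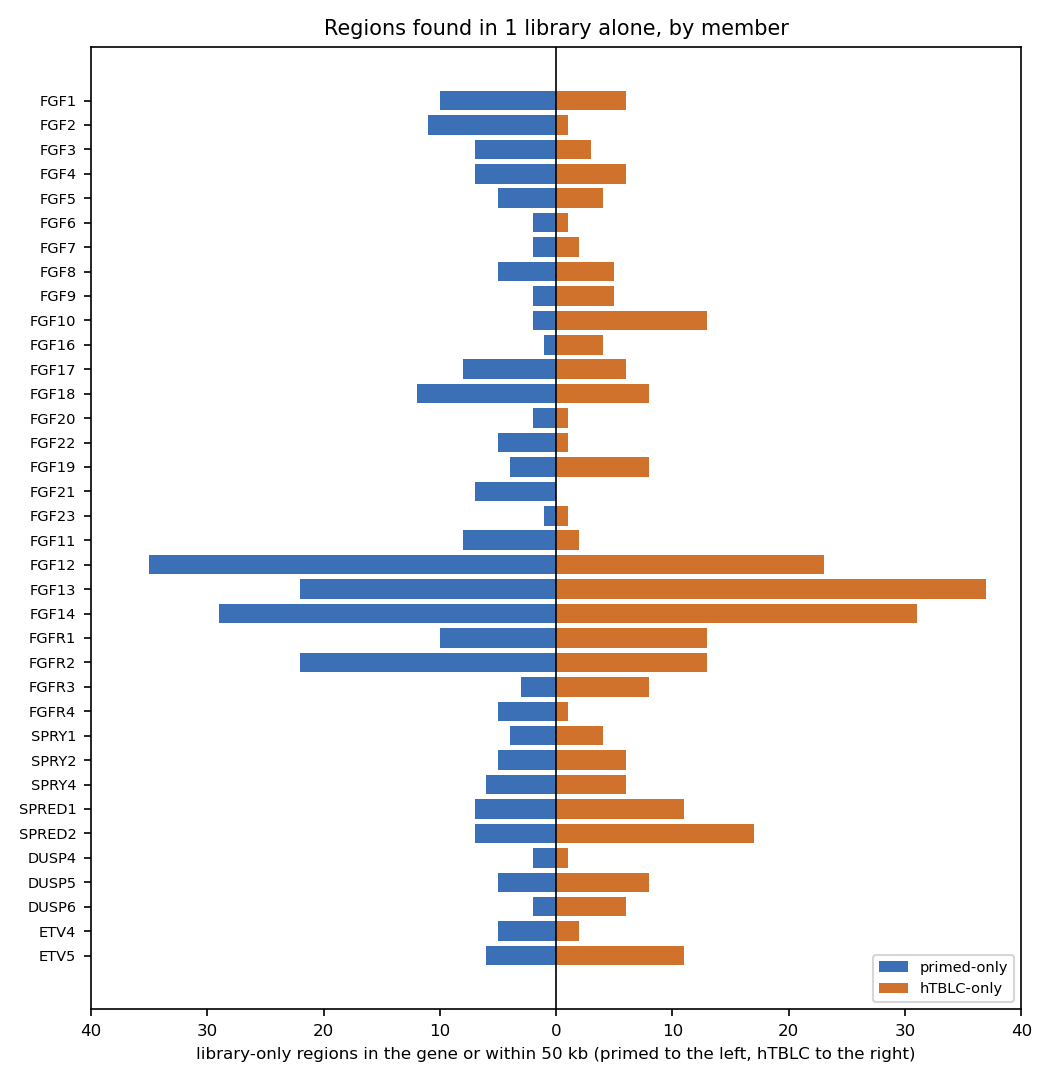
Number of regions found in 1 library alone, in each gene or within 50 kb of it, with primed-only counts drawn to the left and hTBLC-only counts to the right of 0. FGF2 (11 and 1), FGFR2 (22 and 13) and FGF12 (35 and 23) extend mostly to the left, and FGF13 (22 and 37), SPRED2 (7 and 17) and FGF10 (2 and 13) to the right; long genes hold more regions.

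By role the shares had overlapping intervals, and their difference was not tested. Around the feedback genes 38 regions were primed-only and 59 hTBLC-only, a hTBLC share of 60.8% (50.9 to 69.9). Without SPRED2 the counts were 31 and 42, 57.5% (46.1 to 68.2), an interval that includes the 48.9% near protein-coding genes. The share was 45.4% (37.4 to 53.6) around paracrine ligands, with 77 and 64, and 46.7% (35.8 to 57.8) around receptors, with 40 and 35. Around the intracellular FGF genes the counts were 94 and 93. FGF12, FGF13 and FGF14, the longest of them, had 86 and 91 together, with more primed-only regions at FGF12 and more hTBLC-only regions at FGF13. The endocrine ligand genes had 12 and 9, and the ETV genes 11 and 13.

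Among single members, FGF2 had 11 primed-only regions, 8 of them in the gene body, and 1 hTBLC-only region downstream of it. FGF10 was the reverse, with 2 primed-only and 13 hTBLC-only regions, 8 of the 13 in the gene body. Both differences shrank under stricter limits: hTBLC-only minus primed-only counts were −2 for FGF2 and 4 for FGF10 at a −log10 q limit of 5, and 0 for both at a limit of 10. FGF21 had 7 primed-only and 0 hTBLC-only regions, FGF11 had 8 and 2, FGFR2 had 22 and 13 and FGF12 had 35 and 23, a difference of −5 for FGF12 at a −log10 q limit of 10. On the hTBLC side stood FGF13 with 22 and 37, SPRED2 with 7 and 17, FGFR3 with 3 and 8 and ETV5 with 6 and 11. Most library-only regions were weak, since over the genome their median was 12 in each list, against 24 for shared regions. Near the members, 36 primed-only and 32 hTBLC-only regions had a −log10 q of at least 10, a hTBLC share of 47.1% against 47.2% over all such regions.

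The strongest primed-only region near a member lay 37713 bp downstream of the FGFR4 start, at 177124249 to 177124813 of chromosome 5; its pileup was 98 (79.6 to 119). It was closer to the start of NSD1, a histone methyltransferase gene, 7170 bp away. A primed-only region 19791 bp upstream of FGF12 had 59 (44.9 to 76.1), and one inside FGFR1, on chromosome 8 at 38413224 to 38413638, had 58. The next were a region of 58 in the window of FGF21 that lay 1020 bp from the start of RASIP1, a gene of vessel formation, and one of 57 located 14826 bp upstream of SPRY2.

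The strongest hTBLC-only region lay inside FGF13, 4466 bp from its start, at 139200381 to 139200712 of chromosome X, and stood at 117 (96.8 to 140). The next lay 3831 bp inside FGF18, on chromosome 5 at 171423020 to 171423698, with 86 (68.8 to 106), and downstream of SPRED2, on chromosome 2 at 65278513 to 65279005, with 62 (47.5 to 79.5). A region of 57 in the window of FGF11 sat 292 bp from the start of SPEM1, a spermatid gene, and one of 56 lay inside ETV5, 513 bp from a gene end. Each list lacks the lines of some ranks, 252 in primed and 327 in hTBLC, and sites on those lines were read as absent; their part in any single library-only region was not tested.

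Regions called in both libraries were then compared by pileup. Near the members 487 regions could be matched, of which 50 (10.3%) were past the fold and higher in hTBLC and 73 (15.0%) lower. Over all 147705 matched regions these shares were 10.1 and 17.0%, so the members as a group again stood near the background. Without depth scaling the order turned, to 67 higher (13.8%) and 56 lower (11.5%), against 13.1 and 13.6% over all matched regions. Their median log2 ratio was −0.059, against −0.13 over all matched regions.

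By role, the feedback genes had 21 of 103 matched regions higher in hTBLC (20.4%) and 8 lower (7.77%), with a median log2 ratio of 0.20. Without depth scaling they had 27 and 8. Without SPRED2 these were 14 and 6 of 75, with a median of 0.19. The receptors had 3 higher and 11 lower of 53, with a median of −0.24, or 5 and 8 without depth scaling. Paracrine ligands had 9 and 22 of 131, or 15 and 13 without depth scaling, median −0.13, and intracellular FGF genes 14 and 17 of 148, or 16 and 15 unscaled, median −0.028. The endocrine ligand genes had 1 and 8 of 32, median −0.41, and the ETV genes 2 and 7 of 23, median −0.27. The start ratios of the ETV genes lay above 1, with intervals that include 1. Around them the median was below 0, as was the median of −0.13 over all matched regions.

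**Figure D4:**
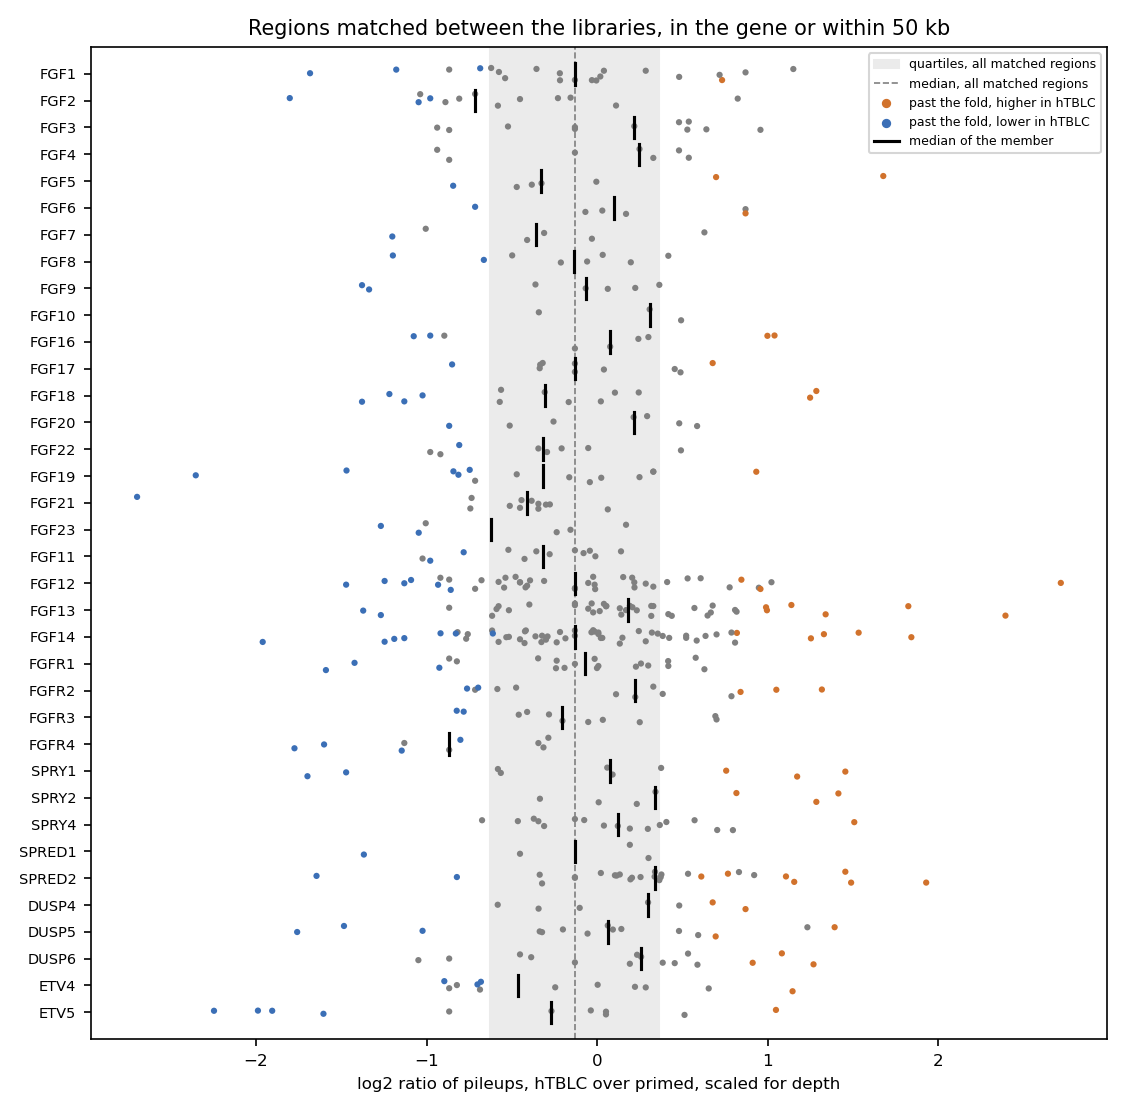
Log2 ratio of the pileups, hTBLC over primed and scaled for depth, for each region called in both libraries in or within 50 kb of each member; black bars are medians per member, coloured points are past the fold, and the grey band and dashed line are the quartiles, −0.63 and 0.36, and the median, −0.13, of all matched regions. FGF2 and FGFR4 have medians of −0.72 and −0.87, and SPRED2 and SPRY2 have medians of 0.34 each.

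FGFR4 had 4 of 9 matched regions lower in hTBLC and 0 higher. Besides its start, a region 15195 bp upstream had 43 and 27, a ratio of 0.57 (0.34 to 0.95). The other two lay 25162 and 30098 bp downstream of the start, nearer to NSD1, with 95 and 47 and with 50 and 16, ratios of 0.45 (0.31 to 0.65) and 0.29 (0.16 to 0.52). FGF2 had 3 of 13 lower and 0 higher: the start, a region 29764 bp upstream with 54 and 30, a ratio of 0.51 (0.31 to 0.81), and one 1669 bp past the end of the gene, at 122899600 to 122900197 on chromosome 4, with 86 and 27. The ratio of the last was 0.29 (0.18 to 0.45), and the nearest gene start was that of NUDT6, the gene that overlaps FGF2 on the opposite strand. FGFR2 was mixed, with 2 lower, the start and a region 18038 bp inside with 120 and 81 (ratio 0.62, 0.46 to 0.82), and 3 higher. The higher ones were weaker: a region 46298 bp upstream of FGFR2 had 11 and 30, and one 70595 bp inside had 15 and 34.

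SPRY2 had 3 of 7 matched regions higher in hTBLC and 0 lower. A pair of strong regions lay upstream of the gene on chromosome 13. The one at 80359260 to 80360193, 18476 bp from the start, had 110 in primed and 212 in hTBLC, a ratio of 1.76 (1.39 to 2.24). The one at 80361856 to 80362286, 20933 bp from the start, had 60 and 175, a ratio of 2.66 (1.98 to 3.63), while the SPRY2 start itself had 1.27.

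DUSP6 had 3 of 15 higher and 0 lower, with 22 and 51 at 26834 bp downstream of its start, 17 and 35 at 7527 bp upstream and 11 and 29 at 43361 bp upstream. SPRED2 had 7 of 28 higher and 2 lower, the start among the 7. Inside SPRED2, regions 82727, 72950 and 54684 bp from the start had 14 and 33, 16 and 39, and 14 and 43, with ratios of 2.15 (1.12 to 4.35), 2.23 (1.22 to 4.27) and 2.81 (1.51 to 5.55). The other brake genes were mixed or had few calls. DUSP4 had 2 higher and 0 lower of 7 and SPRY4 had 1 and 0 of 17, while SPRED1 had 0 and 1 of 4.

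DUSP5 had 2 higher and 3 lower of 15: besides its end, a region 3522 bp inside the gene had 47 and 135, a ratio of 2.62 (1.87 to 3.74), and the lower ones had 34 and 11, 39 and 21, and 46 and 18. SPRY1 had 3 higher and 2 lower of 10. The lower ones lay upstream of SPRY1, at 17779 bp with 152 and 60, a ratio of 0.36 (0.26 to 0.49), and at 46434 bp with 83 and 28, a ratio of 0.31 (0.19 to 0.48), and the strongest higher one, 47662 bp downstream of its start, had 86 and 159.

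ETV5 went the other way away from its ends. Of 11 matched regions 4 were lower, with 65 and 19 at 186121831 to 186122396, 50 and 18 at 186057603 to 186057904, 52 and 12 at 186128288 to 186128585 and 29 and 8 at 186080001 to 186080556, all on chromosome 3. Their ratios were 0.27 (0.15 to 0.45), 0.33 (0.18 to 0.57), 0.21 (0.10 to 0.40) and 0.25 (0.10 to 0.56), beside a start ratio of 1.04.

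FGF13 had 6 of 40 matched regions higher and 2 lower in hTBLC. Upstream of its outer start on chromosome X, the region at 139211477 to 139212033 had 83 and 200, a ratio of 2.20 (1.70 to 2.88), and the one at 139213346 to 139213683 had 16 and 92, a ratio of 5.25 (3.07 to 9.57). With 23 and 50, the region 12050 bp away had a ratio of 1.99 (1.19 to 3.41). The strong hTBLC-only region inside FGF13 lies at the same end of the gene, whose strongest start summits, 85 and 94, did not differ beyond counting error. A summit pair 1199 and 1242 bp inside FGF13 had 30 and 72, a ratio of 2.19 (1.41 to 3.48).

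The largest ratio near any member lay inside FGF12, on chromosome 3 at 192249420 to 192250066, with 10 and 72 and a ratio of 6.58 (3.38 to 14.3). The smallest was 0.15 (0.079 to 0.28), with 77 and 13, in the window of FGF21 on chromosome 19 at 48752571 to 48753125, where the nearest start was that of the fucosyltransferase gene FUT1, 2441 bp away. FGF19 had a region on chromosome 11 at 69683891 to 69684138 with 42 and 9, a ratio of 0.20. FGF14 held regions of both kinds inside the gene, with 13 and 51 at 102033802 to 102034527 and 32 and 9 at 102224988 to 102225187 on chromosome 13, ratios of 3.58 and 0.26.

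At the limit of 50 kb, the outermost regions counted were near FGFR2, at 49932 bp with a primed pileup of 25 and at 49912 bp with a hTBLC pileup of 49. The nearest ones left out were at 50220 bp from FGF8, with a primed pileup of 48, and at 50043 bp from DUSP4, with a hTBLC pileup of 9.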

How the data were processed

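ATAC-seq peak lists of 1 primed and 1 hTBLC library of WIBR3 were analysed. The submitters' processing notes name Bowtie2, Picard, MACS2 and the build hg38, and the sources used here do not give transposase shifting, read filters or the calling threshold. Each library has its own peak list. The authors deposited positions, a score, a fold ratio of summit over local background, a −log10 p-value and a −log10 q-value for each peak. The score was not used. A whole pileup and a background were solved for each peak, to a tolerance of 0.001, as the pair that gives its fold and, as a Poisson tail, its −log10 p. The lists end at a −log10 p of 2.00 (primed) and 2.83 (hTBLC), and 252 and 327 ranks have no line. Read totals were not analysed here, so relative depth was taken from the most frequent lowest background, 1.96 over 1.79; it is 0.13 on the log2 scale.

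Peaks that overlap or touch were merged on chromosomes 1 to 22 and X, and regions sharing 1 bp were called shared. Matched regions are the strongest overlapping regions of each library. Gene positions, strands and promoter windows came from RefSeq tables of GRCh38.p14 without exons. The gene start was the outer end on the gene's strand, or either end where no strand was found, by the same rule for all 19974 genes. Ratio intervals are exact binomial, pileup intervals Poisson and shares Wilson, all 95% and for counting error only. Reads were not analysed as single molecules. With 1 library per group no test was run.

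The members and lists were chosen with earlier results of these data known. Named genes are members with a start region in 1 library or a ratio past the fold, the 5 members per direction with the largest difference in library-only regions, the 5 strongest library-only and matched regions per direction, and FGF2, FGF4, FGF8, FGFR1, FGFR2, FGFR3, SPRY2, SPRY4, DUSP6, ETV4 and ETV5. Other values complete the list of members or were chosen after they were seen, as were the regions described per gene. Steps were tested on simulated data. Alternatives were the −log10 q limit, top 50000 regions, a common −log10 p floor, overlap rules, window sizes, gene end, depth scaling and the fold. Paired summits, contact beyond the window and the set without FGF12, FGF13 and FGF14 were added after the data were seen. Python 3.11.15, pandas 2.3.3, numpy 2.4.6 and scipy 1.17.1 were used.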

Additional observations from a re-analysis of the deposited data

How the results depend on the processing

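No paired analysis was possible because each group has 1 library and no replicate number. The count of matched regions near members past the fold and higher in hTBLC, 50 as reported, was 32 at a −log10 q of at least 5, 22 at 10, 31 within 10 kb, 93 within 200 kb and 30 at a fold of 2. The count lower in hTBLC, 73 as reported, was 37 at a −log10 q of at least 10, 43 within 10 kb, 188 within 200 kb and 44 at a fold of 2; fewer or more regions enter under these limits. Their median log2 ratio, −0.059, was 0.072 without depth scaling and also 0.072 when scaled by the median ratio, since both add 0.13 to every log2 ratio. Start regions in primed alone, 2 as reported, numbered 1 with a −log10 q limit of 10, 1 with the top 50000 regions, 1 with either end of each gene, and 0 within 2500 bp or when contact beyond the window counted as presence in both. Those in hTBLC alone, 1 as reported, numbered 3 with the −log10 q limit of 10 and 0 in the last 2 settings. At a fold of 2, 0 starts were higher and 2 lower, FGF2 and FGFR4. The FGF2 start log2 ratio, −1.05, was 0.69 with paired summits. Differences in library-only regions (hTBLC-only minus primed-only) reversed for FGFR2 to 2 under a −log10 q limit of 10, for FGF11 to 1 with the top 50000 regions, and for ETV5 to −3 under that limit, −2 with the top 50000 regions and −1 within 200 kb. For FGF2, FGF10 and FGF12 the differences of −10, 11 and −12 shrank to 0, 0 and −5 at the limit of 10. Without scaling FGF10, at 0.62, came past the fold and FGF22, at −0.68, fell short, and the matched counts were 67 higher and 56 lower. The cause of these shifts was not tested beyond what the limits themselves change. Each main count, share or median was compared with its value under each setting that bears on it. In 54 of these comparisons it stayed within 1.5 times its value or within its interval, and in 21 it did not.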
